A study of Homo sapiens with 4 samples.

Results

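The proteasome genes described here are all genes on the array whose name is PSM, a letter from A to G and a number, which covers the subunits, activators, inhibitor and assembly chaperones of the proteasome. There were 48 such genes among 43310 gene names, measured by 71 probes in 89 spots. Where a gene had several probes, the brightest by mean log2 signal over the 4 arrays stood for it, a choice that did not use any difference between samples. All 48 names are current symbols. Of the 48 genes, 45 were well above background on both HCT116 arrays and 46 on both A549 arrays, and only these have a change in that line.

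RNA came from HCT116, a colorectal cancer cell line, and from A549, a lung adenocarcinoma cell line. The 4 groups were HCT116 transfected with the negative control NC1, HCT116 transfected with miR-891b, A549 transfected with NC1 and A549 transfected with miR-891b, all with the reagent Dharmafect1. Each group was 1 array, hybridised with Cy3-labelled RNA made from 100 ng of total RNA. No dose or time after transfection is used here, and all cells carried a transfected RNA, since the controls received NC1. With 1 array per group there is no replicate, so no change within a line can be tested, and statements on a line compare 2 libraries.

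The proteasome degrades proteins that carry ubiquitin chains. Its 20S core is a barrel of outer alpha rings and inner beta rings, and the beta rings hold the proteolytic sites. The 19S particle caps the barrel, with a base of ATPases that unfold the substrate and a lid that removes ubiquitin. In cells exposed to interferon, PSMB8, PSMB9 and PSMB10 replace the standard catalytic subunits, and the PSME1 and PSME2 activator can replace the 19S cap. When proteasome activity is short, the transcription factor NFE2L1 is known to raise the subunit genes together through antioxidant response elements in their promoters.

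The sequence of miR-891b is shown because it is the agent of every comparison. Its mature form in RefSeq (GRCh38.p14, chrX:146001100-146001121, minus strand) has its seed, bases 2 to 8, in capitals.
hsa-miR-891b: uGCAACUUaccugagucauuga
The DNA complement of this seed, AAGTTGC, was searched on the sense strand of the probe sequences. It was found in 1 of the 71 proteasome probes, 1.41%, against 0.393% of 58201 gene probes. That probe belongs to PSMB4, and its first bases (hg19, chr1:151374330-151374359, plus strand) are shown with the match in capitals.
PSMB4: gAAGTTGCcctacttttaactttgaacttg
A probe covers a small piece of a transcript, so a probe with no match says nothing about the rest of it. Whether the match lies in a coding or an untranslated part was not analysed here.

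Levels are log2 processed signals minus the array's 75th percentile over gene probes, and a change is the level on the miR-891b array minus that on the NC1 array of the same line. The processed signal at the 75th percentile was 54.9 to 74.8 over the 4 arrays, 44.7% to 50.3% of probes were well above background, and no spot was saturated. The levels of the 45 genes above background on every array ran from 1.35 to 9.05. Each line lay on a slide of its own, so line and slide cannot be told apart. The error model of the scanner software gave the change of the median proteasome gene a standard error of 0.204 in both lines. For genes spotted several times, the spread of the change over spots of 1 array pair was smaller, with a median SD of 0.061 over 276 probes in HCT116 and 0.071 over 287 in A549. These errors cover the spots, not the cells. The chosen probes of 7 proteasome genes (PSMA1, PSMA5, PSMA8, PSMC5, PSMD6, PSMD7 and PSME4) lay on some array in an area of stray signal, where at least 10% of the neighbouring spots stood above background although the other arrays showed them dim. Of the markers written down for each line, 6 of 6 for A549 and 5 of 6 for HCT116 were higher in their own line on the NC1 arrays, and also on the miR-891b arrays. The exception was VIL1, a microvillus protein, which was above background in A549 and not in HCT116. Of 6 fibroblast markers, COL1A2, COL3A1 and DCN were not well above background on any array, COL1A1 and PDGFRB were on all 4, and LUM was on the A549 arrays. Of the blood cell markers reported here, PTPRC was above background on all 4 arrays and CD3E on none. Some markers differed with miR-891b. The 6 A549 markers were all below 0 in A549 (median -0.60), AKR1B10, one of them, had a change of 4.47 in HCT116, and LUM had 2.14 in A549. The part of such differences in the results was not tested.

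In HCT116, most proteasome genes were slightly higher on the miR-891b array. The median change over the 45 genes was 0.25, against -0.041 over 19105 genes. Of the 45, 35 had a change above 0, compared with 44.5% of all genes. No gene reached 2-fold in either direction, where 1.16% of all genes were at least 2-fold higher and 0.843% at least 2-fold lower. At 1.5-fold, 0 were higher (3.91% of all genes) and 1 was lower, PSMB9 (5.65% of all genes). A change of 0.25 or more, just past the standard error, was seen upward in 23 of 45 genes (16.8% of all genes) and downward in 3 (24.4% of all genes). Genes of like signal did not share this shift. The 2289 genes between the signal quartiles of the proteasome genes had a median change of -0.048. The median of the proteasome genes stayed between 0.25 and 0.35 under all settings tried. Its excess over all genes was 0.29 to 0.37 with the filter on dim probes and 0.070 without it, where 62.7% of all genes were above 0 and 29 of 48 proteasome genes lay above the median of all genes.

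In A549, the median change over 46 proteasome genes was -0.11 against -0.059 over 21336 genes, and it turned to 0.145 and 0.14 under the 2 quantile settings, so it has no settled direction. Of the 46, 17 had a change above 0, compared with 44.4% of all genes, and with quantile normalization 31. PSMD3 was the only gene at least 2-fold higher (4.01% of all genes), and none was at least 2-fold lower (5.57% of all genes). At 1.5-fold, 1 gene was higher (11.1% of all genes) and 5 were lower, namely PSMA1, PSMB4, PSMB9, PSMC6 and PSMG2 (15.3% of all genes). With quantile normalization this split became 8 higher and 1 lower, PSMG2. A change of 0.25 or more was seen upward in 9 genes (25.2% of all genes) and downward in 15 (33.8% of all genes). These shares lay below or near those of all genes. The 2616 genes between the signal quartiles of the proteasome genes had a median change of -0.18, and 34.6% of them were above 0, so the proteasome genes did not lie below genes of like signal. Under all settings, the median of base and lid together lay above that of the alpha and standard beta rings together, as described next.

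**Figure D1:**
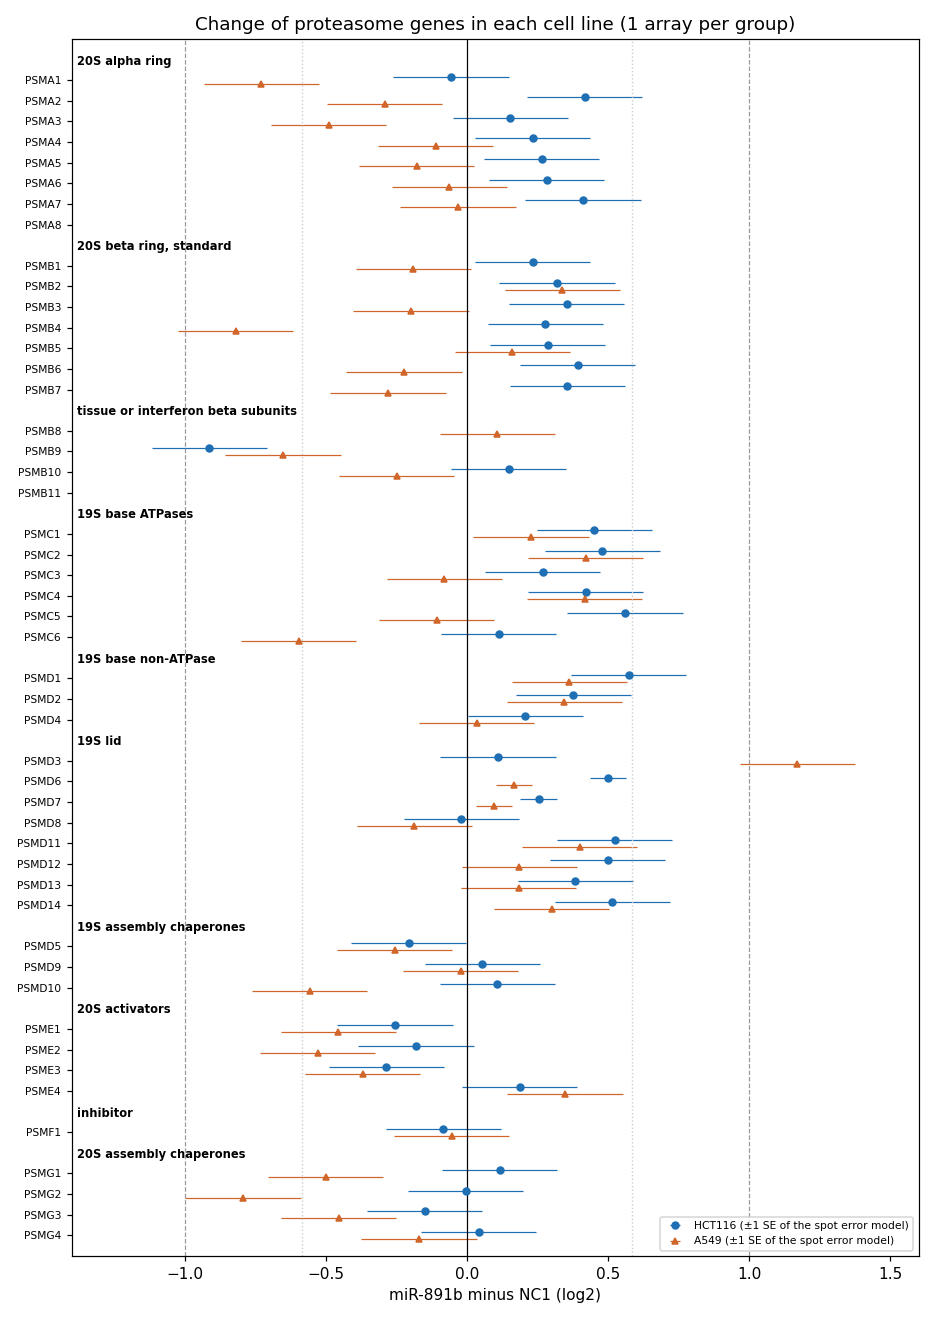
Change of each proteasome gene from the NC1 to the miR-891b array (log2) in HCT116 (circles) and A549 (triangles), grouped by role, with 1 standard error of the scanner software's spot error model and 1 array per group. Dotted and dashed lines mark 1.5-fold and 2-fold, and genes not above background in a line have no point. HCT116 points of the rings, the base and the lid lie mostly right of 0, and PSMD3 is the only point past 2-fold. The A549 points left of 0 for the rings move right under quantile normalization, where the median of the 20S core becomes positive.

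The 20S core, taken as the alpha ring and the standard beta ring, and the 19S subunits, taken as base and lid, differed in how far they shifted. In HCT116, 13 of 14 core genes and 16 of 17 19S genes had a change above 0, with medians of 0.28 and 0.42. In A549, 2 of 14 core genes and 13 of 17 19S genes had a change above 0, with medians of -0.19 and 0.19, but the core median became 0.17 and 0.13 under the 2 quantile settings while the 19S median became 0.43 and 0.44. Genes between the signal quartiles of the proteasome genes had a median of -0.18 in A549, close to that of the core. Those quartiles were taken over all measured proteasome genes, so these genes were not matched to the core in signal. The 19S median exceeded the core median by 0.14 in HCT116, with a range of 0.083 to 0.14 over the settings. In A549 it did so by 0.38, with a range of 0.26 to 0.45. This difference between groups of genes within 1 pair of arrays has no test.

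**Figure D2:**
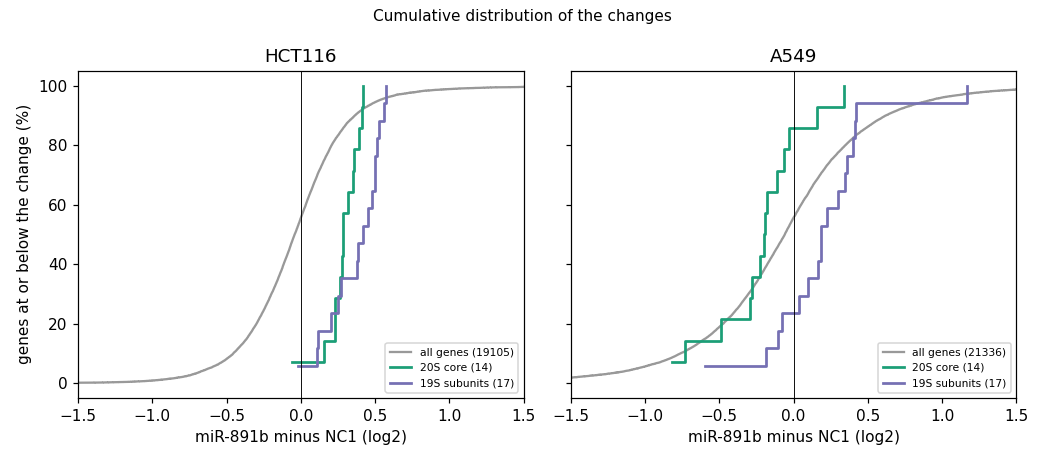
Percentage of genes at or below a given change (log2, miR-891b minus NC1) for all measured genes, the 14 genes of the 20S core and the 17 genes of the 19S base and lid, in HCT116 (left) and A549 (right). Both proteasome curves lie right of all genes in HCT116, whereas in A549 the core lies left and the 19S right of all genes, a position of the core that turns under quantile normalization. The core median in A549 (-0.19) is also close to that of genes between the signal quartiles of all measured proteasome genes (-0.18). That set was not matched to the core in signal.

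The alpha ring forms the gate of the barrel. In HCT116, 6 of its 7 measured genes had a change above 0, with a median of 0.27. PSMA2 had levels of 6.50 (NC1) and 6.92 (miR-891b) in HCT116 and of 6.47 and 6.18 in A549, so it was higher with miR-891b in the first line and lower in the second, although its A549 change of -0.29 became 0.049 under 1 quantile setting. PSMA7, which was 6.08 and 6.49 in HCT116, was 6.81 and 6.78 in A549. Its change was 0.41 in HCT116 and -0.032 in A549, the latter smaller than the error of the spots and of no fixed sign over the settings. In A549, 7 of 7 alpha genes had a change below 0 with a median of -0.18, but the median was 0.049 and 0.12 under the quantile settings. PSMA3 was the alpha gene whose A549 change kept its sign under all settings, with levels of 6.75 and 6.26 and a change of -0.49. Its size became -0.17 and -0.19 under the quantile settings, within the standard error of 0.204.

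PSMA1 showed the widest disagreement between probes. Its chosen probe (hg19, chr11:14526569-14526628) had levels of 6.91 and 6.85 in HCT116 and of 6.62 and 5.89 in A549. The resulting changes were -0.056 and -0.73. The second probe, which is much dimmer, gave 0.57 in HCT116 and 0.65 in A549. The chosen probe lies in an area of stray signal on the HCT116 NC1 array, which does not enter the A549 change. The part of that area in the HCT116 change was not tested. As its probes disagree, PSMA1 has no settled direction in A549. PSMA8, the alpha subunit of the testis proteasome, had no array on which it stood well above background.

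The standard beta ring includes the 3 catalytic subunits, PSMB6 with caspase-like, PSMB7 with trypsin-like and PSMB5 with chymotrypsin-like activity. In HCT116, 7 of its 7 genes had a change above 0, within a narrow range of 0.23 to 0.39 and with a median of 0.32. PSMB5 levels were 6.96 and 7.24 in HCT116 and 6.32 and 6.48 in A549, changes of 0.29 and 0.16. PSMB6 levels were 7.26 and 7.65 in HCT116 and 7.12 and 6.89 in A549, changes of 0.39 and -0.22. PSMB7 levels were 6.91 and 7.26 in HCT116 and 6.75 and 6.47 in A549, changes of 0.36 and -0.28. The A549 values of PSMB6 and PSMB7 turned positive under quantile normalization, at up to 0.19 and 0.063. The ring's A549 median was -0.20 and became 0.19 and 0.14 under the quantile settings.

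PSMB4, the beta subunit whose probe holds the seed match printed above, stood apart from the ring in A549. Its levels were 7.47 and 7.75 in HCT116 and 7.26 and 6.44 in A549. The changes were 0.28 in HCT116 and -0.82 in A549, and the A549 value was below 0 under all settings. Under the quantile settings it was -0.48 and -0.47, short of 1.5-fold. PSMB2 took the other course, with 5.70 and 6.02 in HCT116 and 4.65 and 4.99 in A549. It was higher by 0.32 and 0.34 with miR-891b, nearly the same size in both lines.

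Of the ATPases of the 19S base, 6 of 6 had a change above 0 in HCT116 (median 0.44) and 3 of 6 in A549 (median 0.074). Under both quantile settings 5 of 6 were above 0 in A549, with medians of 0.35 and 0.33. PSMC2 had levels of 5.23 and 5.71 in HCT116 and of 5.13 and 5.55 in A549, changes of 0.48 and 0.42. PSMC4 had levels of 4.62 and 5.04 in HCT116 and of 5.42 and 5.84 in A549, changes of 0.42 in each line. These 2 and PSMC1 were higher with miR-891b in both lines. PSMC5 had levels of 3.62 and 4.18 in HCT116 and of 3.42 and 3.32 in A549. Its change of 0.56 in HCT116 was the second highest of all proteasome genes there, and its A549 change was -0.11 (0.052 at most under quantile normalization). PSMC6 had levels of 3.96 and 4.08 in HCT116 and of 4.33 and 3.74 in A549. Its changes were 0.11 and -0.60, the latter -0.45 under each quantile setting, short of 1.5-fold.

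The non-ATPase scaffold subunits of the base, PSMD1 and PSMD2, and the ubiquitin receptor PSMD4 had changes above 0 in both lines, with medians of 0.38 in HCT116 and 0.34 in A549, the latter 0.74 and 0.69 under the quantile settings. PSMD1 had the highest change of all proteasome genes in HCT116, with levels of 6.50 and 7.08 there and of 6.28 and 6.64 in A549, changes of 0.57 and 0.36. PSMD2 was 8.15 and 8.53 in HCT116 and 7.15 and 7.49 in A549, changes of 0.38 and 0.34.

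In the lid, 7 of 8 genes had a change above 0 in each line, with medians of 0.44 in HCT116 and 0.18 in A549. Under the quantile settings 8 of 8 were above 0 in A549, with medians of 0.38 and 0.41. PSMD14, the enzyme that cuts ubiquitin chains from substrates, had levels of 6.27 and 6.78 in HCT116 and of 5.60 and 5.90 in A549. Its changes were 0.51 and 0.30. PSMD11 had levels of 4.02 and 4.54 in HCT116 and of 4.54 and 4.94 in A549, and its changes were 0.52 and 0.40. PSMD8 was the lid gene below 0, at -0.020 in HCT116 and -0.19 in A549, both with no fixed sign over the settings. PSMD6 and PSMD7 were printed in 10 spots each, which lets the technical spread be seen. The change of PSMD6 was 0.50 ± 0.040 (SD over 10 spots of 1 array pair) in HCT116 and 0.17 ± 0.061 in A549. That of PSMD7 was 0.25 ± 0.054 in HCT116 and 0.095 ± 0.052 in A549. All spots of both genes had a change above 0 in both lines.

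PSMD3, a scaffold subunit of the lid, had the largest change of any proteasome gene. Its levels were 3.74 and 3.85 in HCT116 and 2.10 and 3.27 in A549. The A549 NC1 array stood low, and the other 3 arrays lay between 3.27 and 3.85. The change in A549 was 1.17, or 2.25-fold, and that in HCT116 was 0.11. It was measured by 1 probe, whose coordinates (hg19, chr17:38152574-38153624) are wider than the probe, which spans a splice junction. Its spot was not in an area of stray signal.

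**Figure D3:**
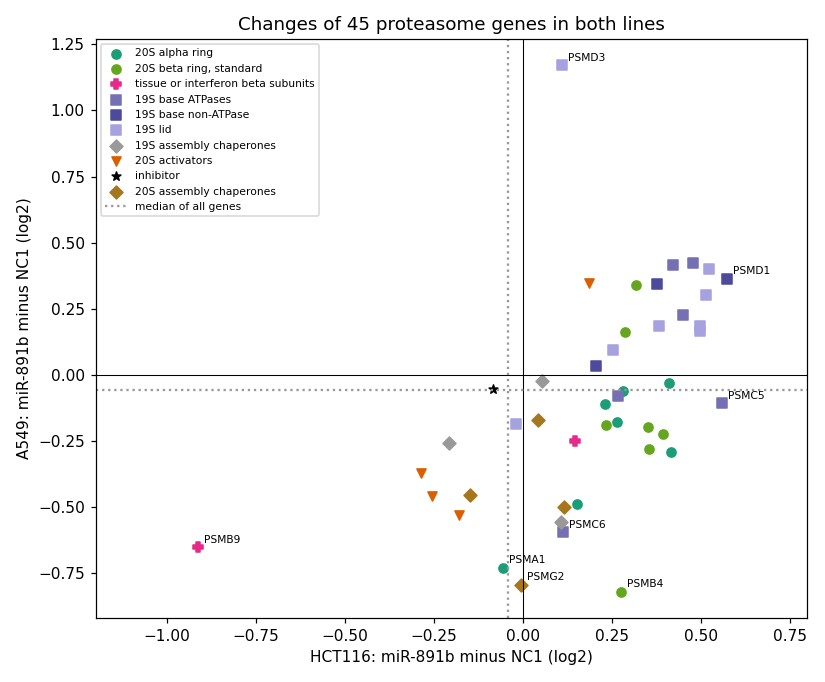
Change with miR-891b (log2) in HCT116 (horizontal) against that in A549 (vertical) for the 45 proteasome genes above background on all 4 arrays, marked by role, with dotted lines at the medians of all genes. The 19S subunits lie mostly in the upper right, the 20S core in the lower right (upper right under quantile normalization) and the activators PSME1, PSME2 and PSME3 in the lower left.

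Of these 45 genes, 16 had changes above 0 in both lines (21.1% of 18064 genes), 10 below 0 in both (33.8% of these) and 19 above 0 in HCT116 and below 0 in A549 (23.3%). The opposite pattern, seen in 21.8% of these genes, was found in 0 of 45. Of the 19, 13 turned positive in A549 under at least 1 quantile setting, 9 of them genes of the 20S core and the others PSMB10, PSMC3, PSMC5 and PSMD9. In the main setting, the change in A549 was below that in HCT116 for 40 of 45 genes, compared with 54.3% of all genes. This contrast depended on the scaling, and its count was not made under the other settings. With normexp and quantile normalization, the 20S core medians were 0.17 in A549 and 0.36 in HCT116, and the 19S medians 0.43 and 0.48. The median of the non-ATPase base was then higher in A549, at 0.74 against 0.48. Across the 45 genes the changes of both lines had a Pearson r of 0.53 and a Spearman rho of 0.61, against 0.13 and 0.13 across all genes. These are descriptions, since genes of 1 array share its scaling and are not independent.

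Of the interferon-inducible catalytic subunits, PSMB9 stood apart from the standard core, and PSMB10 followed the pattern of the core. PSMB9, the inducible counterpart of PSMB6, was the only proteasome gene at least 1.5-fold lower in both lines. Its levels were 2.26 and 1.35 in HCT116 and 2.47 and 1.81 in A549 (hg19, chr6:32823918-32823977), so both miR-891b arrays lay below both NC1 arrays. The changes were -0.91 and -0.65, and the A549 value became -0.42 and -0.57 under the quantile settings, which is short of 1.5-fold (0.585). PSMB10, the counterpart of PSMB7, had levels of 6.13 and 6.27 in HCT116 and of 5.68 and 5.43 in A549. Its changes were 0.15 and -0.25, the latter 0.064 at most under quantile normalization. PSMB8, the counterpart of PSMB5, could not be told from background in HCT116 and had levels of 1.43 and 1.54 in A549. It was at least 31.4-fold higher in A549 than in HCT116 on the NC1 arrays and at least 25.5-fold higher on the miR-891b arrays, measured against the dimmest probe above background in HCT116. Its change in A549 was 0.11. PSMB11, the thymus subunit, was well above background only on the A549 NC1 array, too dimly to give a fold.

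The activators that can replace the 19S cap were lower with miR-891b, apart from PSME4. PSME1 had levels of 2.30 and 2.04 in HCT116 and of 2.37 and 1.91 in A549, changes of -0.25 and -0.46. PSME2, its partner in the PA28 ring, had levels of 8.10 and 7.92 in HCT116 and of 8.04 and 7.52 in A549, changes of -0.18 and -0.53. PSME3, the nuclear activator, had levels of 4.34 and 4.06 in HCT116 and of 4.11 and 3.74 in A549, changes of -0.29 and -0.37. For these 3 genes both miR-891b arrays lay below both NC1 arrays, and the changes were below 0 under all settings. In A549, however, PSME2 was only -0.23 and -0.14 and PSME3 -0.17 and -0.24 under the quantile settings. In HCT116, PSME2 was -0.047 and -0.046 under them, and its main change of -0.18 was within the standard error of 0.204. For PSMB9 and PSMD5 both miR-891b arrays also lay below both NC1 arrays in the main setting. That makes 5 of 45 proteasome genes in all, against 10.4% of all genes, so the count is near the background. The direction of PSMD5 depended on the probe. Its chosen probe gave -0.21 in HCT116 and -0.26 in A549. Of its dimmer probes, one in an area of stray signal gave 0.31 and 0.15, and the other gave 0.12 and -0.32. The opposite, both miR-891b arrays above both NC1 arrays, was seen in 5 of 45, namely PSMC1, PSMC2, PSMD1, PSMD11 and PSME4, against 5.64% of all genes. PSME4, the PA200 activator, had levels of 2.17 and 2.36 in HCT116 and of 2.12 and 2.46 in A549, changes of 0.19 and 0.35.

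**Figure D4:**
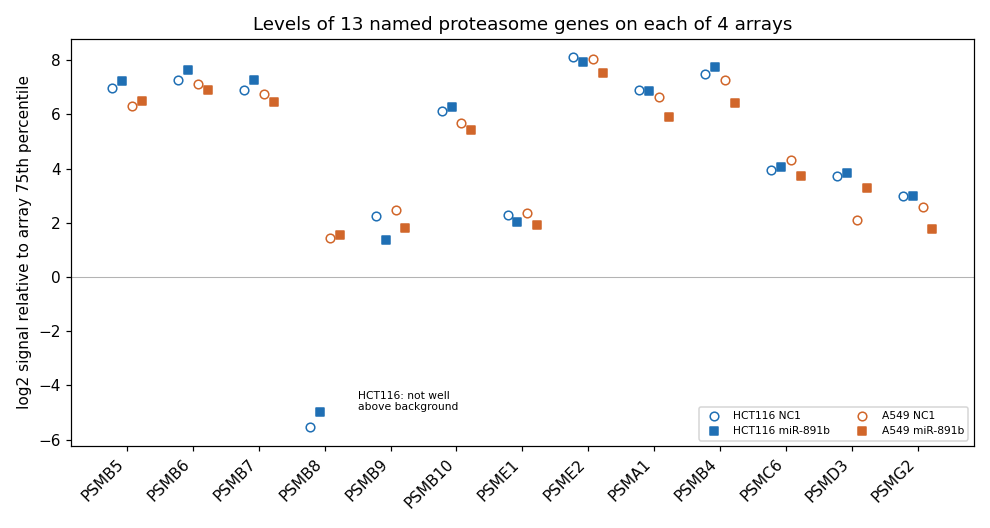
Levels (log2 signal relative to the array's 75th percentile) of 13 proteasome genes on the NC1 (open circles) and miR-891b arrays (filled squares) of HCT116 (blue) and A549 (orange), 1 array each. Arrays can be compared within a gene, not genes with each other. PSMB9, PSME1 and PSME2 are lower with miR-891b in both lines, PSMD3 is low on the A549 NC1 array, and PSMB8 is not above background in HCT116.

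The inhibitor and the assembly chaperones lay close to 0 in HCT116, with changes of -0.21 to 0.12. PSMF1, which binds the 20S core and blocks it, had levels of 2.64 and 2.55 in HCT116 and of 3.84 and 3.78 in A549. Its changes of -0.084 and -0.053 were smaller than the error model's standard error of 0.204, and neither kept its sign under all settings. PSMG1 to PSMG4 are chaperones that build the alpha ring, and they had a median change of 0.019 in HCT116 and -0.48 in A549. Their A549 changes were all below 0, also under quantile normalization, where the medians were -0.21 and -0.27. PSMG1 had levels of 6.44 and 6.56 in HCT116 and of 6.12 and 5.62 in A549, changes of 0.12 and -0.50. PSMG2 had levels of 3.006 and 3.002 in HCT116 and of 2.58 and 1.78 in A549, changes of -0.0037 and -0.79. PSMG3 had levels of 4.02 and 3.87 in HCT116 and of 3.79 and 3.33 in A549, changes of -0.15 and -0.45. PSMG4 had levels of 4.19 and 4.23 in HCT116 and of 3.39 and 3.22 in A549, changes of 0.042 and -0.17. The chaperones of the 19S base, PSMD5, PSMD9 and PSMD10, had medians of 0.054 and -0.26. PSMD10, also known as gankyrin, was 2.91 and 3.02 in HCT116 and 3.24 and 2.68 in A549 by its chosen probe, changes of 0.11 and -0.56. Its other probes, both in areas of stray signal, gave 0.15 and 0.18 in HCT116 but disagreed in A549. There a dimmer probe gave -0.57, and a probe nearly as bright as the chosen probe gave 0.17, with levels of 3.18 and 3.36. The mean over all probes was -0.32 in A549, so the change there depends on the probe.

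Most of these genes differed by less than 2-fold between the lines. On the NC1 arrays, A549 minus HCT116 had a median of -0.16 over 45 proteasome genes and of -0.10 over 19218 genes, a difference that was 0.017 under 1 quantile setting. PSMB2, PSMD2 and PSMD3 were at least 2-fold lower in A549 (16.2% of all genes) and PSMF1 was at least 2-fold higher (11.1% of all genes). In the additive limma model over all 4 arrays, which estimates a line and a treatment effect with 1 residual degree of freedom, 5 of 46 proteasome genes differed between the lines at a Benjamini-Hochberg adjusted p under 0.05, against 31.9% of 22712 genes. The count was 12 with normexp and quantile normalization and 3 with quantile normalization alone. In the main setting they were PSMB1, PSMB2, PSMD2, PSMF1 and PSMB8. The limma model gave PSMB1 -1.19 ± 0.25 (SE, adjusted p = 0.0325), PSMB2 -1.05 (adjusted p = 0.0357), PSMD2 -1.02 (adjusted p = 0.0379) and PSMF1 1.21 (adjusted p = 0.0254). PSMB8 entered the model only through its 2 A549 arrays and was not above background in HCT116. Its call therefore followed from that filter and is no test of the line. The 22712 genes also include genes above background in only 1 line, since 18064 genes were measured in both lines. The share of 31.9% was not computed without them, so it is no like comparison for the proteasome genes. The slide is part of each of these line differences.

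For the treatment, the same limma model called 0 of 46 proteasome genes and 0% of all genes, with a smallest adjusted p of 0.793. At an unadjusted p under 0.05 it held 1 of 46 proteasome genes and 1214 of 22712 genes. That gene was PSMB9, with a common change of -0.78 ± 0.24 (SE) and an adjusted p of 0.793 in limma, lower in both lines.

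The counts above 0 in the 4 gene lists that follow stand beside 44.5% of all genes in HCT116 and 44.4% in A549. Several lie near these shares, and none was tested. Partners of the proteasome outside the name pattern were taken as a list of 11 genes. In HCT116, 10 of 11 had a change above 0, with a median of 0.26. PAAF1, which binds 19S ATPases during assembly, was highest, with levels of 3.25 and 4.02 and a change of 0.76. POMP, the chaperone of beta ring assembly, had 1.53 and 2.03, and USP14, a deubiquitinase of the 19S, had -1.80 and -1.35. In A549, 4 of the 11 were above 0 with a median of -0.046. KIAA0368, the older name of ECPAS, a scaffold that binds assembled proteasomes, had the highest change, 0.69. Its probe lay on some array in an area of stray signal. Of 8 regulators of proteasome genes, 6 of the 7 measured in HCT116 and 4 of the 6 measured in A549 were above 0, with medians of 0.10 and 0.25. NFE2L1 had levels of 4.68 and 4.79 in HCT116 and of 4.75 and 5.42 in A549, changes of 0.10 and 0.67. The NFE2L2 probe did not stand well above background on an array. Ubiquitin genes, E1 enzymes and shuttle factors, 14 genes, had 7 above 0 in HCT116 with a median of 0.0055 and 5 above 0 in A549 with a median of -0.080. Of 8 interferon genes of antigen processing, CIITA was not above background, 0 of 7 were above 0 in HCT116 with a median of -0.18, and 3 of 7 were in A549 with a median of -0.0092. No gene of these 4 lists reached 2-fold in either line.

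RefSeq promoters (GRCh38.p14), from 250 bases before to 50 after a start, were matched to 42 of the 48 genes, with 51 promoters in all. Each motif was searched on both strands, and no match of one overlapped a match of another. TGACNNNGC, the core of the antioxidant response element bound by NFE2L1 and NFE2L2, was found in 15 of 42 proteasome genes, 35.7%, against 16.1% of 27305 genes. The matches of 20S and 19S subunits are shown because these subunits were higher together in HCT116. The motif was also found in PSMB9, PSMD5, PSMD9, PSME1, PSME2, PSME4, PSMG1 and PSMG2, which are not shown. Their changes in HCT116 ran from -0.91 (PSMB9) to 0.19 (PSME4), so the share of 35.7% includes genes that were not higher there. Whether the motif bears on any change was not tested. Each match shown is read on the strand of its gene, in capitals. It is the reverse complement of the motif where it lies on the other strand.
PSMA4: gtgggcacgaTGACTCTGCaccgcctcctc
PSMB3: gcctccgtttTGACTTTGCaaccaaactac
PSMC4: acagaggccgGCTTGGTCActatggaggag
PSMC5: gaccggatctGCTGTGTCAgcgccgccctc
PSMD1: ggcggcctgaggaggcgacTGACTGAGCag
PSMD12: agacaaaaccTGACGCTGCaggctggagtg
PSMD3, first match: tcccctttgtTGACTCGGCcatcggcctgc
PSMD3, second match: ggggtttgcagctGCTCCGTCAtcgtgcgg
They lie at chr15:78540650-78540679, chr17:38752627-38752656, chr19:39971182-39971211, chr17:63827654-63827683, chr2:231056887-231056916, chr17:67366723-67366752, chr17:39980760-39980789 and chr17:39980827-39980856 in that order, all on the plus strand but PSMD12. Over all roles, genes with and without the motif had median changes of 0.12 (15 genes) and 0.27 (24 genes) in HCT116 and of -0.11 (15 genes) and -0.063 (25 genes) in A549. Within the 20S core and the 19S base and lid, the medians were 0.42 (7 genes) and 0.29 (19 genes) in HCT116 and 0.19 (7 genes) and 0.095 (19 genes) in A549. Of the 7 genes with the motif, PSMA4 and PSMB3 belong to the core and the others to the 19S. The 19S median was above that of the core in both lines, so motif and role cannot be told apart here. The order of genes with and without the motif thus depended on which roles were counted, and it has no test.

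GAAANNGAA, the core of the interferon-stimulated response element, was found in 8 of 42 proteasome genes, 19.05%, against 9.86% of all genes. It was present in PSMB8, PSMB10, PSME1 and PSME2, and these windows are shown because their genes form the interferon-linked proteasome and its activator. The motif was also found in PSMA4, PSMB4, PSMC2 and PSMG4, which are not shown and are not interferon-linked subunits.
PSMB10: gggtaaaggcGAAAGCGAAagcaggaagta
PSMB8: atctgtggctTTCGCTTTCacttcctcctc
PSME1: ccctaccgctTTCGCTTTCccttcgcggtg
PSME2: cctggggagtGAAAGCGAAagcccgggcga
They lie at chr16:67936852-67936881 (minus strand), chr6:32844031-32844060 (minus), chr14:24136190-24136219 (plus) and chr14:24146619-24146648 (minus). PSMB9 had no match of this motif in its window. CCAAT was found in 47.6% of the proteasome genes and 39.7% of all genes, and GCATGCGC, a site of the factor NRF1, in 4.76% and 3.68%. A match is a description of letters and not a bound site.

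**Figure D5:**
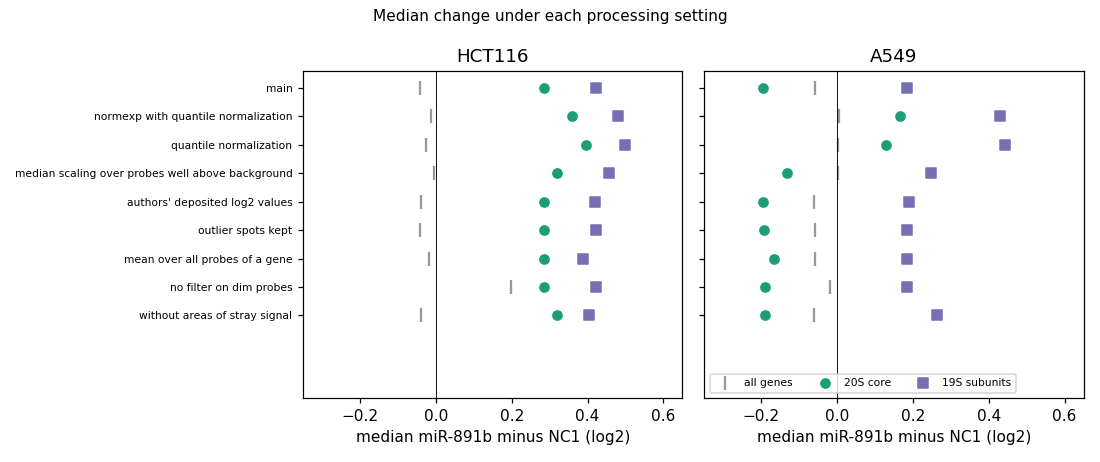
Median change (log2, miR-891b minus NC1) of all genes, the 20S core and the 19S subunits under the main setting and 8 alternatives, in HCT116 (left) and A549 (right). In HCT116 both proteasome medians are above 0 under every setting shown, whereas in A549 the core median turns from below to above 0 under the 2 quantile settings and the 19S median stays above it.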

How the data were processed

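Samples were grouped by their titles, 1 array in each of 4 groups. The deposited scanner output holds linear intensity values, made with Agilent Feature Extraction 11.5.1.1 per the file headers, with background subtraction within each array and no scaling between arrays. The authors' deposited table holds log2 values, which differed from the main setting by a median of at most 0.0069 per array. Outlier-marked spots were dropped, log2 processed signals averaged per probe, and each array's 75th percentile subtracted. A gene counted as measured in a line when its chosen probe passed the well-above-background mark on both arrays of it. The additive model used limma 3.58.1 in R 4.3.3 with Benjamini-Hochberg adjustment over genes above background on at least 2 of 4 arrays. It was tested on simulated data. Other values were computed in Python 3.11.15. Genes named with values were those past 1.5-fold, the 3 lowest and 3 highest changes in each line, the catalytic subunits, the PSME, PSMF and PSMG genes and those not above background. PSMA2, PSMA3, PSMA7, PSMB2, PSMD2, PSMD5, PSMD6, PSMD7, PSMD8, PSMD10, PSMD14 and the list genes given with values were added after their values were seen. So were PSMC1 and PSMC3, named without values, the 0.25 threshold and the counts of signs. The genes and lists were chosen with earlier results of these data known. Nothing says that the arrays came from separate cultures. The number of arrays limits the precision. One marker is not reported here.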

Additional observations from a re-analysis of the deposited data

Results flagged for a closer look

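Several results differed in direction between the lines, and none of these differences could be tested with 1 array per group. The median change in A549 minus that in HCT116 was -0.36 over all measured proteasome genes, -0.44 for the alpha ring, -0.52 for the standard beta ring and -0.48 for both rings together. It was -0.31 for the 19S assembly chaperones and -0.50 for the 20S assembly chaperones. The A549 medians of all measured genes and of the rings turned positive under both quantile settings. Of single genes, PSMB4 differed by -1.10, PSMC6 by -0.71 and PSMA2 by -0.71, each with a change above 0 in HCT116 and below 0 in A549. The A549 change of PSMA2 turned positive under 1 quantile setting.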

How the results depend on the processing

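No paired analysis was possible because the labels carry no replicate numbers, apart from the additive model, which takes the cell line as a term. With 1 array per group, none was left out. In HCT116, 39 of 45 genes had the same sign under all 8 alternatives, and in A549 30 of 46. The HCT116 median was 0.35 with quantile normalization. HCT116 genes at least 1.5-fold higher numbered 1 with normexp and quantile normalization, 2 with quantile normalization, 2 with median scaling and 1 without the filter on dim probes. That last setting also moved the HCT116 median of all genes to 0.20, since dim probes then enter. With normexp and quantile normalization, and with quantile normalization alone, the A549 median was 0.145 and 0.14, the A549 genes above 0 were 32 and 31, those 1.5-fold higher 8 and 8, and those 1.5-fold lower 1 and 1. A549 genes 1.5-fold higher were 2 with the mean over probes and 2 without areas of stray signal. PSMA1 in A549 was 0.65 by its other probe, which also stands for it in the setting without areas of stray signal. The line difference on the NC1 arrays was 0.017 with normexp, -0.018 with quantile normalization and -0.069 with median scaling, and the genes limma called between lines were 12 and 3 with the first 2 of these. The cause of these shifts was not tested. Probe brightness limits the 3 genes not above background in HCT116, PSMA8, PSMB8 and PSMB11.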

Other observations

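Other probes of the same genes give a further view of technical spread. In HCT116, 17 other probes of 13 proteasome genes were measured, and 13 had the sign of the chosen probe, with a median absolute difference of 0.13 and a largest of 0.62. In A549, 13 of 18 other probes of 14 genes had the same sign, with a median absolute difference of 0.089 and a largest of 1.38, that of PSMA1. For PSMG2 both probes were lower with miR-891b in A549, at -0.79 and -0.74.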
